A study of Homo sapiens with 2 samples.

Results

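The genes of the translation initiation, elongation and release factors were examined in HT29, an established line of human colon adenocarcinoma cells, after transfection with an siRNA against the transcription factor GATA6 or with a control siRNA. The series held 1 array for each condition, so there is no replicate check and no test, and lower or higher is said of these 2 arrays alone. Neither the GATA6 duplex used for the array nor the time from transfection to RNA extraction is stated in the labels or methods, and the control sample's title calls it reanalyzed without further detail. Members were chosen by symbol, as genes named EIF or EEF followed by a digit, ETF1, GSPT1 and GSPT2, without antisense transcripts and pseudogenes. Of 13752 named genes other than small RNAs, 35 were members, measured by 37 probe sets. The current RefSeq annotation holds 72 protein-coding genes that fit the same rule. The named members were 5 of 15 in the EIF2 group, 10 of 16 in the EIF4 group, 9 of 13 in the EEF group and 11 of 14 among the EIF1, EIF5, EIF6 and release factor genes. Of the 14 genes of the EIF3 group 0 were named, and the subunits of eIF2 and its exchange factor eIF2B, the eIF4G scaffolds, EIF4A1, EIF4A2 and ETF1 were likewise not analysed here.

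Translation initiation brings the initiator tRNA, the small ribosomal subunit and the mRNA cap together. eIF2 carries the initiator tRNA and is inactivated by stress-sensing kinases that phosphorylate its alpha subunit, whereas eIF4E binds the cap and is held in check by the 4E-binding proteins until mTORC1 phosphorylates them. In elongation, eEF1A delivers aminoacyl-tRNA, eEF2 moves the ribosome along the mRNA, and eRF1 with eRF3 ends the process at the stop codon. Growth of the intestinal epithelium and of colon tumors draws on this machinery, and MYC, which binds the E-box CACGTG, is a known regulator of EIF4E.

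The deposited values were read as base 2 logarithms (log2), an assumption on which every fold and call rests. They are relative to the median of both arrays, so each gene has equal and opposite values in the 2 arrays and no expression level. Whether a factor is expressed in HT29 cells, and whether the cells carry the markers of colon epithelium, could therefore not be checked. Differences are GATA6 siRNA minus control siRNA. GATA6 was 2.22-fold lower (log2 difference -1.15) and MYC 2.67-fold lower (-1.42). Of 9 epithelial markers 7 were named, and 3 were higher by over 1.4-fold (EPCAM, KRT19 and KRT20), beside 3.56% of all named genes. All 7 lay above 0 (median 0.36), but VIL1 and CDX2, at 0.02 each, were far inside the SD between probe sets given below (0.19). Of the markers of fibroblasts, endothelium, muscle and nerve, 6 were named and 0 passed 1.4-fold, and 0 of 4 blood markers were named. The only error inside the arrays came from 470 genes with 2 probe sets, for which the SD between probe sets of a gene was 0.19. Of the 35 members, 25 lay closer to 0 than this SD.

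To show the regulatory sequence beside the values, the 250 bases upstream of the start site are printed for 4 members on which the results turn, from RefSeq (GRCh38.p14), 5' to 3'. EIF4E is shown for its pair of E-boxes, EIF4B for its E-box and its discordant probe sets, and EIF2AK4 and EIF4EBP2 as the members with the largest increases. Capitals mark the E-box CACGTG or a GATA site (AGATAA or AGATAG or TGATAA or TGATAG) on either strand.
EIF4E (chr4:98929134-98929383, minus strand): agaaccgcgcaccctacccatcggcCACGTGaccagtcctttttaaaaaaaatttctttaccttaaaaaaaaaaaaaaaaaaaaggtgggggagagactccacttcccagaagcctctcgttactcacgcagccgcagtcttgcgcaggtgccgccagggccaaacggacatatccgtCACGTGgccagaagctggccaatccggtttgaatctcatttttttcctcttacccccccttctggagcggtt
EIF4B (chr12:53006206-53006455, plus strand): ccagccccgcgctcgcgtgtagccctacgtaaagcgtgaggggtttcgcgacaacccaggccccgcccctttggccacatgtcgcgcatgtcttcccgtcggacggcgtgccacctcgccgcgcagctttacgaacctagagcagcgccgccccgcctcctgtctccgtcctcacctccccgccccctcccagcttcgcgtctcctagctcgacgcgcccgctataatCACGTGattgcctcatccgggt
EIF2AK4 (chr15:39933865-39934114, plus strand): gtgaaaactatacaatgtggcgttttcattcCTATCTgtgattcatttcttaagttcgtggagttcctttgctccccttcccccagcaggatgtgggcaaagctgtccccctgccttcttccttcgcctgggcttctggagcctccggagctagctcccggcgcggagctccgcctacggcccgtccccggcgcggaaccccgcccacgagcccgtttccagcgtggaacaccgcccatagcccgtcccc
EIF4EBP2 (chr10:70403895-70404144, plus strand): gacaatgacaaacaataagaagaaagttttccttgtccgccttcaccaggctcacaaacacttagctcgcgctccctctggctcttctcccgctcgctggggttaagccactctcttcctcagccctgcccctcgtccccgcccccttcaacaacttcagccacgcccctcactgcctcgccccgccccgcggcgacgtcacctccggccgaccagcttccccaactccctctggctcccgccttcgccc

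The E-boxes of EIF4E begin 225 and 72 bases before the start site and that of EIF4B 22 bases before it. In EIF2AK4 the capitals spell the reverse complement of AGATAG, 219 bases before the start site, and EIF4EBP2 held neither motif in this window. Of the 35 members 29 had a promoter entry, and EEF1A2, EEF1AKMT1, EEF1AKMT3, EEF1D, EIF2AK1 and EIF4EBP1 had none. An E-box was found in 8 of the 29 (27.6%), compared with 10.1% of the 9704 named protein-coding genes with an entry. Over all 27305 genes with an entry the share was 7.73%, a gene counting if any of its entries held the motif. The 8 members were EIF4E, EIF4B, EIF4A3, EIF4H, EIF5A2, EIF1B, EIF2AK2 and EEF2K. Member promoters were also richer in G and C (median 66.8%) than all promoters (58%), and the part of base composition in this share was not tested. Of the 7 members with an E-box other than EIF4B, whose probe sets disagree, 3 lay below and 4 above 0, between -0.13 for EEF2K and 0.27 for EIF4H. When every value was set relative to the ribosomal protein genes, as described below for the family, 1 lay below and 6 above. A GATA site was found in 4 of the 29 members (13.8%), EIF1AD, EIF2AK4, EIF4E2 and EIF5A. The share was 21.4% of the named protein-coding genes and 26.2% of all genes with an entry. The differences of these 4 ran from -0.22 for EIF5A to 0.69 for EIF2AK4. A match to letters is not a measured binding site.

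As a family, the translation factors differed little between the arrays. Past a 1.4-fold change, which the study's methods used for decreases and which equals 0.485 in log2 units, 1 of 35 members was lower and 2 were higher. These shares, 2.86% and 5.71%, are near the background of 2.61% lower and 3.56% higher among all 13752 named genes, or 2.81% and 3.95% among the 11910 protein-coding ones, so the counts are not a result about the family. The member below the limit was EIF4EBP1, and those above it were EIF2AK4 and EIF4EBP2. Each has a regulatory role, the first and last as repressors of eIF4E and EIF2AK4 as a kinase of eIF2. Other regulators among the members did not pass as deposited, such as EIF2AK3 (0.36), EIF2AK1 (0.08), EIF2AK2 (0.07) and EEF2K (-0.13). A tie between the calls and regulatory roles was not tested. The smallest of the 3 called differences was 0.54 in size and the largest uncalled one 0.36. The median over the family was -0.04 and the mean 0.01, against a median of 0 over all named genes. The values were also set relative to the median of the 50 named ribosomal protein genes, here called the ribosomal scale, on which each difference is 0.12 higher. On that scale the family median was 0.08, 8 members lay below 0 in place of 20, and 0 members were lower and 3 higher past 1.4-fold (1.45% and 6.09% of all named genes). The spread of the members (SD 0.24) was close to that of all named genes (SD 0.25).

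**Figure D1:**
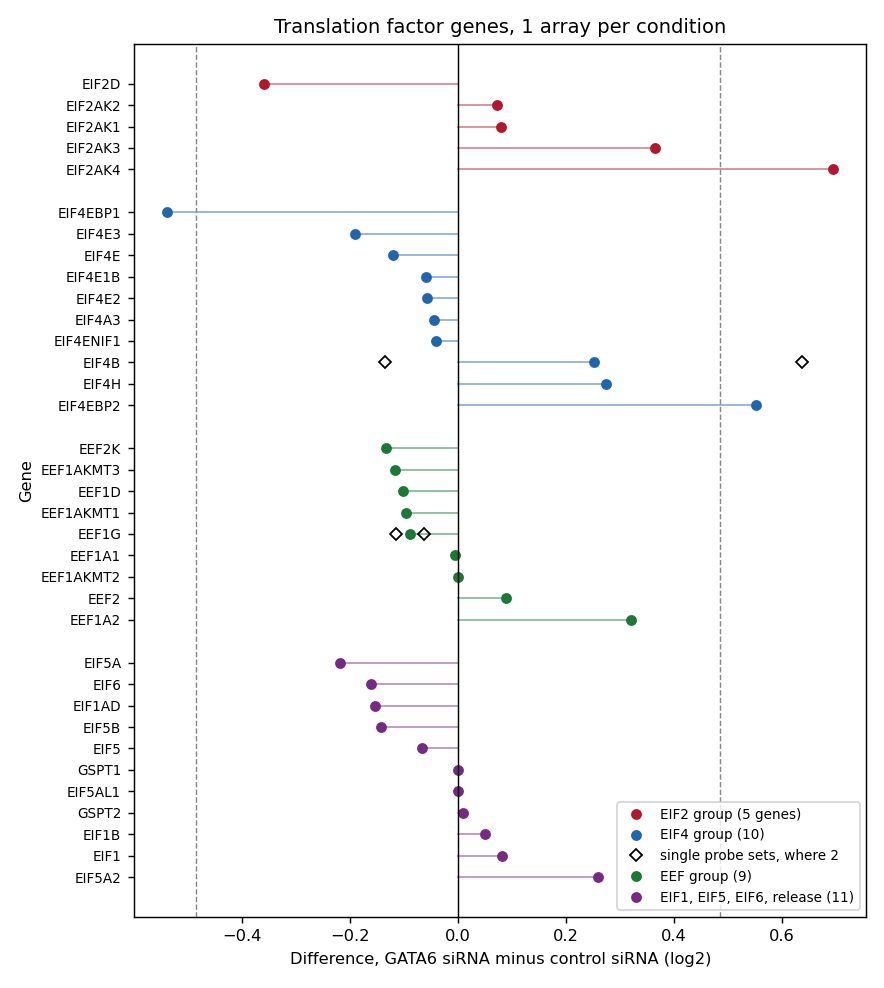
Log2 difference (GATA6 siRNA minus control siRNA, horizontal axis) of each of the 35 translation factor genes, ordered within 4 groups. Filled points are gene values from 1 array per condition, open diamonds the single probe sets of EIF4B and EEF1G, and dashed lines 1.4-fold. EIF4EBP1 lies left of the lower line, EIF2AK4 and EIF4EBP2 lie right of the upper one, and the 2 probe sets of EIF4B lie at -0.14 and 0.64.

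**Figure D2:**
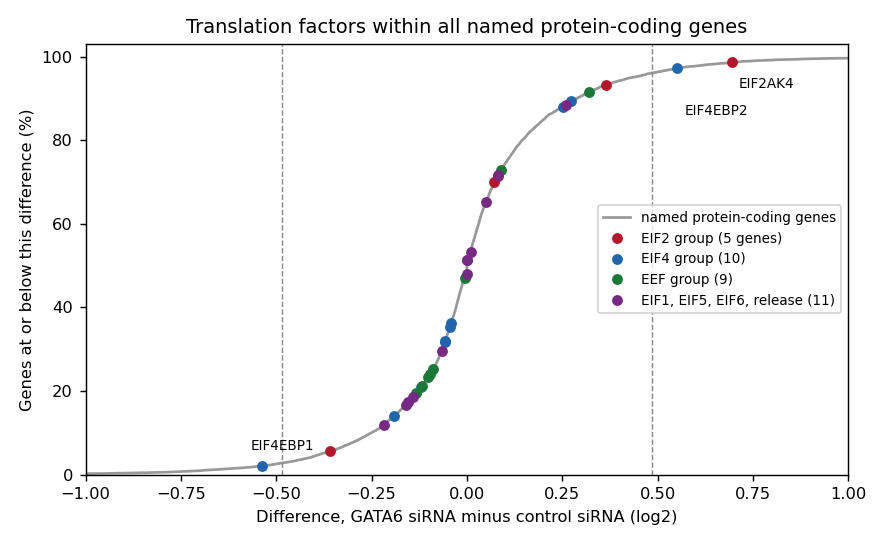
Percent of the 11910 named protein-coding genes at or below each log2 difference (grey curve), with the 35 translation factors as points coloured by group and 1.4-fold as dashed lines. Most members sit on the steep middle of the curve, and 25 of the 35 differ from 0 by less than 0.19. The curve is cut at -1 and 1, beyond the range of the members.

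In the EIF2 group the kinases of eIF2 alpha all had values above 0. EIF2AK4 encodes GCN2, which is activated by uncharged tRNA. Its value was -0.35 in the control array and 0.35 in the GATA6 siRNA array, a difference of 0.69 or 1.62-fold, which ranked 174th among the increases of all named genes. EIF2AK3, which encodes PERK, the kinase of endoplasmic reticulum stress, had -0.18 in the control and 0.18 in the GATA6 siRNA array, a difference of 0.36. It did not pass 1.4-fold as deposited and reached 0.49, just past the limit, on the ribosomal scale. EIF2AK1, the heme-regulated kinase HRI, differed by 0.08 and EIF2AK2, the double-stranded RNA kinase PKR, by 0.07, both within the SD between probe sets. The 4 kinases had a median of 0.22, and each was measured by 1 probe set. The remaining member of the group was EIF2D, a factor that can bring initiator tRNA to the ribosome without eIF2. Its values were 0.18 in the control array and -0.18 in the GATA6 siRNA array, a difference of -0.36 that did not pass 1.4-fold. Of the 35 members only EIF4EBP1 had a difference further below 0. The median of the 5 genes of the group was 0.08 (0.20 on the ribosomal scale).

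In the EIF4 group the 2 named 4E-binding proteins differed in opposite directions. EIF4EBP1 had 0.27 in the control array and -0.27 in the GATA6 siRNA array, a difference of -0.54 or 1.45-fold lower, which ranked 271st among the decreases of all named genes. On the ribosomal scale its difference was -0.42, which does not pass 1.4-fold. EIF4EBP2 had -0.28 in the control and 0.28 in the GATA6 siRNA array, a difference of 0.55 or 1.47-fold higher, ranked 350th among the increases. The difference of EIF4EBP2 exceeded that of EIF4EBP1 by 1.09 on the log2 scale, a gap within the same arrays that a constant added to all genes leaves as it is. Both were measured by 1 probe set. Their proteins share the eIF4E-binding function, and EIF4EBP3, the third gene of that family, was not analysed here. The median of the 10 genes of the group was -0.05 (0.07 on the ribosomal scale).

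The cap-binding proteins themselves lay close to 0. EIF4E differed by -0.12, EIF4E2, which encodes the repressive cap-binding homolog 4EHP, by -0.06, EIF4E3 by -0.19 and the germline form EIF4E1B by -0.06. All 4 were below 0 as deposited, and their median of -0.09 turned to 0.03 on the ribosomal scale. EIF4ENIF1, the eIF4E transporter of processing bodies, differed by -0.04, and EIF4A3, the helicase of the exon junction complex, by -0.04. Each of these 6 differences was smaller than the SD between probe sets. Of the proteins that assist the eIF4A helicase, EIF4H had a difference of 0.27. EIF4B, another of these proteins, averaged 0.25, but its 2 probe sets disagreed, at -0.14 and 0.64. Only the second passes 1.4-fold. The gap between them was 0.77, whereas the median gap over the 470 genes with 2 probe sets was 0.12, and 11 of these genes (2.34%) had a gap at least that large. No direction is given for EIF4B for this reason. RefSeq lists 9 pseudogenes named after EIF4B, more than for any other member except EEF1A1, and whether they bear on either probe set was not tested.

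In the EEF group 0 of 9 members passed 1.4-fold. EEF1A1, the main eEF1A of most cells, differed by -0.01. EEF1A2, the paralog known from muscle and neurons and as an oncogene in some carcinomas, had -0.16 in the control array and 0.16 in the GATA6 siRNA array, a difference of 0.32. EEF2, the translocase, differed by 0.09, and EEF2K, the kinase that inhibits it, by -0.13. The subunits of the eEF1A exchange complex lay below 0 as deposited, EEF1D at -0.10 and EEF1G at -0.09, and both turned above 0 on the ribosomal scale. The 2 probe sets of EEF1G differed by 0.05 only. Of the lysine methyltransferases of eEF1A, EEF1AKMT3 had -0.12, EEF1AKMT1 -0.10, and EEF1AKMT2 was exactly 0 in both arrays. The median of the group was -0.09 (0.03 on the ribosomal scale). For the 5 genes of eEF1 and eEF2 proteins alone, without EEF2K and the methyltransferases, it was -0.01 (0.11 on the ribosomal scale). Of these, 3 lay below and 2 above 0. The 50 named ribosomal protein genes had a median of -0.12 as deposited, and 37 of them lay below 0. The mRNAs of ribosomal proteins and of several elongation factors share a terminal oligopyrimidine start and are translated together under mTORC1. Whether this bears on these values was not tested. RefSeq names 50 pseudogenes after EEF1A1 and 8 each after EEF1D and EEF1G, so their probe sets may share sequence with copies, which was not tested.

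Among the EIF1, EIF5, EIF6 and release factor genes 0 of 11 passed 1.4-fold. The paralogs of eIF5A, the factor that carries hypusine and helps stalled ribosomes, lay on opposite sides of 0. EIF5A had 0.11 in the control and -0.11 in the GATA6 siRNA array, a difference of -0.22. EIF5A2 had -0.13 in the control and 0.13 in the GATA6 siRNA array, a difference of 0.26. The gap between the paralogs was 0.48. EIF5AL1, a close copy of EIF5A, was exactly 0 in both arrays. EIF6, which keeps the large subunit from joining too early, had -0.16, EIF1AD, a protein with an eIF1A-like domain, -0.15, EIF5B, the GTPase of subunit joining, -0.14 and EIF5, the GTPase activator for eIF2, -0.07. EIF1, which guards start codon choice, had 0.08 and its paralog EIF1B 0.05. The release factor genes GSPT1 and GSPT2, which encode the eRF3 forms, had a gap of 0.01, with both values within 0.01 of 0.

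**Figure D3:**
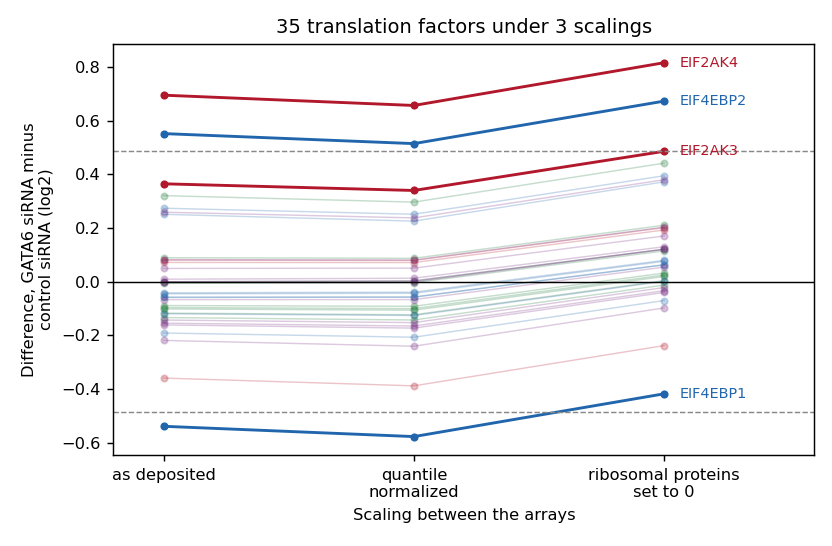
Log2 difference (vertical axis) of the 35 translation factors with the deposited scaling, after quantile normalization and on the ribosomal scale. Quantile normalization was applied to the centred values, not to array intensities, so it cannot correct a bias that depends on intensity. Each line is a gene coloured by group as in the plot of members, and dashed lines mark 1.4-fold. EIF2AK4 and EIF4EBP2 stay above the upper line in all 3, EIF2AK3 reaches it only in the last, and EIF4EBP1 is inside the limits in the last (-0.42).

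Genes that act on these factors were counted in lists drawn up with earlier results of these arrays known, so the counts are a description. Of all named genes 2.61% were lower and 3.56% higher by over 1.4-fold as deposited, and 1.45% and 6.09% on the ribosomal scale. Of the 11 named genes of hypusine, polyamine and diphthamide synthesis, which provide the modifications of eIF5A and eEF2, 4 were lower and 0 higher by over 1.4-fold, with a median of -0.33 (-0.21 on the ribosomal scale, where SRM and ODC1 alone, 2 of the 11, passed the limit). The 4 were SRM, spermidine synthase (1.72-fold lower), ODC1, ornithine decarboxylase (1.59-fold), AMD1, adenosylmethionine decarboxylase (1.49-fold), and DPH2, a diphthamide enzyme (1.48-fold). The hypusine enzymes proper, DHPS and DOHH, had 0.05 and -0.18. The genes past the limit were thus ODC1, SRM and AMD1 of polyamine supply and DPH2 of diphthamide. The other named diphthamide genes, DPH1 (-0.43), DPH7 (-0.33), DPH5 (-0.19) and DPH6 (0.06), did not pass, nor did the polyamine gene SMS (0.19). ODC1 and SRM are textbook targets of MYC, and whether this bears on their differences was not tested.

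Of 12 named genes listed for the response to eIF2 phosphorylation, which include regulators of that step as well as targets, 3 were lower and 0 higher. They were the amino acid synthesis genes PSAT1 (2.14-fold lower), ASNS (1.66-fold) and PHGDH (1.41-fold), which are targets of ATF4, the factor translated when eIF2 is phosphorylated. ATF4 itself differed by -0.03, DDIT3, the stress factor CHOP, by -0.12, and TRIB3, a pseudokinase target of ATF4, by -0.39. EIF2AK4 was higher, and the named targets downstream of eIF2 phosphorylation were lower or within the limits. Phosphorylation was not measured, and a link between these values was not tested. EIF4EBP1 is also a known ATF4 target, and whether this bears on its difference was not tested. The median of the 12 was -0.17 (-0.05 on the ribosomal scale, where PHGDH no longer passed and 2 remained lower).

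Of 8 named regulators of the cap complex, 1 was higher and 0 lower. It was PDCD4, an inhibitor of the eIF4A helicase, at 1.64-fold. MKNK2 (0.43) and MKNK1 (0.26), the kinases of eIF4E, and PAIP1 (0.36), which links poly(A)-binding protein to initiation, did not pass 1.4-fold, while PAIP2B, an inhibitor of poly(A)-binding protein, had -0.36. The median was 0.24. Of 14 named genes of mTORC1 signaling, 2 were higher and 0 lower, the inhibitor DDIT4 (1.42-fold) and the sestrin SESN3 (1.43-fold). AKT1S1, an inhibitory subunit of mTORC1, had 0.47 and TSC2, which turns RHEB off, 0.39, and the median was 0.09. Other inhibitors in the list lay below 0, namely SESN2 (-0.31), SESN1 (-0.22) and DEPTOR (-0.21). On the ribosomal scale 2 members of the cap complex list, PDCD4 and MKNK2, and 4 of the mTORC1 list, AKT1S1 and TSC2 among them, passed as higher. Of the 18 named cytosolic aminoacyl-tRNA synthetases and partners, 2 were lower and 0 higher, GARS1 (1.55-fold) and IARS1 (1.51-fold), with a median of -0.17, and GARS1 alone passed on the ribosomal scale. HARS1 (-0.46) and YARS1 (-0.36) followed without passing the limit. These lists hold few genes, and a difference of their counts from those of the translation factors was not tested.

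**Figure D4:**
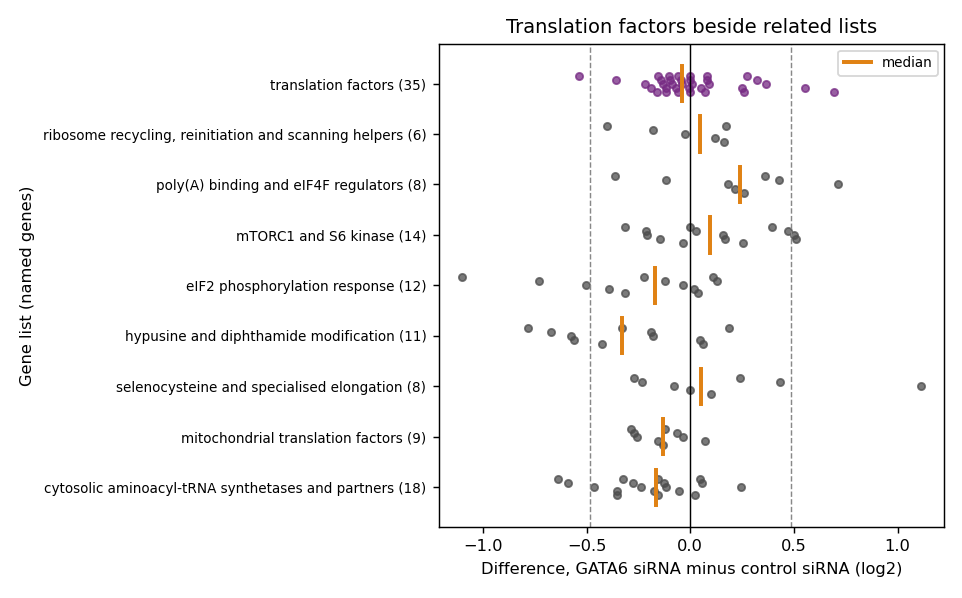
Log2 difference (horizontal axis) of the 35 translation factors and of the named genes of 8 related lists, with a point per gene, a bar at each median and 1.4-fold as dashed lines. Vertical offsets within a list only separate points. The translation factors centre at -0.04, whereas the list of hypusine and diphthamide modification centres at -0.33.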

How the data were processed

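Total RNA of HT29 cells was profiled on Affymetrix Human Gene 2.0 ST arrays of 1 color, and GeneSpring was used for evaluation according to the study's methods. The authors deposited log values, taken here as log2, centred on the median of the 2 arrays. The columns cancel within 1e-06 in every row, and 1865 of 44629 probe sets are exactly 0 in both. Normalization, filters and the log base were not stated in the sources read, and base 2 was assumed. A table of the array's annotation named 15835 probe sets. Values were averaged over probe sets of a gene, and the call of lower or higher required 1.4-fold. EIF4EBP1 and EIF4EBP2 end in P and a digit but are protein-coding and were kept. The members and lists were chosen with earlier results of these data known. Every member could be named, and from each list up to 4 genes with the largest differences. ATF4, DDIT3, DHPS, DOHH, MKNK1, SESN1, SESN2, DEPTOR, DPH1, DPH5, DPH6, DPH7, SMS and the epithelial markers were named after their values were seen. Calculations (Python 3.11.15, pandas 2.3.3) were tested on simulated data. Motifs were searched in RefSeq promoters. The precision is limited by 1 array per condition.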

Additional observations from a re-analysis of the deposited data

How the results depend on the processing

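No paired analysis was possible because there was 1 array per condition, and replicates could not be left out. The distance of signals from background cannot be read from centred values, and the EIF3 group gave no value. The count of lower translation factors, 1 as deposited, was 0 on the ribosomal scale (3 higher) and 2 at a smaller size of 0.32 in log2 units (3 higher). At a 2-fold size 0 were lower and 0 higher. With EIF4EBP1 and EIF4EBP2 left out, a choice made after seeing the data, 0 were lower and 1 was higher. Quantile normalization, applied to the centred values and not to array intensities, gave 1 lower and 2 higher. The median over probe sets, leaving out probe sets at 0, genes with 1 probe set only and centring on protein-coding genes gave the same. These settings could not change the counts. The protein-coding shift was 0, no member has more than 2 probe sets, and each called member has 1 probe set that is not at 0. With the probe set of the largest absolute difference, 3 were higher, EIF4B (0.64) among them. On the ribosomal scale 4 of the 5 medians turned from below to above 0, that of the family to 0.0798, of the EIF4 group to 0.0698, of the EEF group to 0.0324 and of the EIF1, EIF5, EIF6 and release factor genes to 0.121. Of 241 recomputed differences of members 1 moved by more than the SD between probe sets (0.19), and 0 of those past 1.4-fold changed sign. Most of the 241 could not move, so this count is no measure of stability. Several settings repeat the main values, and the ribosomal scale adds 0.12 to each member, less than this SD.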

Other observations

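Factors of translation in mitochondria, which are encoded apart from the cytosolic ones, lay mostly below 0. Of 9 named genes 8 were below 0 as deposited, beside 6673 of all 13752 named genes. None passed 1.4-fold, beside 2.61% lower and 3.56% higher of all named genes. The median was -0.13 (-0.01 on the ribosomal scale). MTIF2, the mitochondrial initiation factor that brings initiator tRNA, had -0.28, MTRFR, a rescue factor for stalled mitochondrial ribosomes, -0.27, and MRRF, the recycling factor, -0.26.

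Of 8 named genes of selenocysteine incorporation and specialised elongation, 1 was higher and 0 lower, beside 3.56% and 2.61% of all named genes. The higher gene was SECISBP2L, a relative of the selenocysteine insertion protein SECISBP2, at 2.17-fold (1.12). SECISBP2 itself had 0.24 and SEPSECS, which makes selenocysteine on its tRNA, 0.43, whereas SEPHS1 had -0.27. The median of the 8 was 0.05, with 3 genes below 0, 4 above and 1 at 0. On the ribosomal scale 2 of the 8 were higher, SEPSECS being the other, beside 6.09% of all named genes. Of 6 named genes of ribosome recycling, reinitiation and scanning 0 passed 1.4-fold. HBS1L, a GTPase that rescues stalled ribosomes, had -0.40, while the median of the 6 was 0.05 and their mean -0.02.

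Transcripts outside the rule for members were the pseudogene EEF1DP3 (0.21), the readthrough gene EEF1AKMT4-ECE2 (-0.20), and the non-coding neighbors EIF1B-AS1 (-0.01) and EIF3J-DT (-0.02), 0 of which passed 1.4-fold.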
